A study of Mus musculus with 12 samples.

Results

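Heat shock proteins and their J-domain partners were examined as a set of 67 of the 41325 genes in the deposited tables. The set took every protein-coding gene whose symbol begins with Hspa, Hspb, Hspd, Hspe, Hsph, Hsp90, Dnaja, Dnajb or Dnajc. Of the 74 symbols that matched, 7 were left out by name. These were the endoplasmic reticulum chaperones Hspa5, Hsp90b1, Dnajb9, Dnajb11 and Dnajc3, and the chaperone-binding proteins Hspbp1 and Hspbap1. Other proteins of the endoplasmic reticulum stayed in the set, among them Dnajc1, Dnajc10 and Dnajb12. The rule goes by name and uses no measured value, but the set was chosen with earlier results of these data known. The 67 members comprise 13 of the Hsp70 class (Hspa genes and Hsph1), 2 Hsp90 genes, the 2 mitochondrial chaperonin genes, 8 small heat shock proteins, 4 Dnaja, 11 Dnajb and 27 Dnajc genes.

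The data are poly(A) RNA-seq of whole liver from 12 wild-type C57BL/6J mice, 4 in each of 3 groups. CDDO-Me livers came from mice with nonalcoholic steatohepatitis (NASH), labelled as CDAHFD-treated (a choline-deficient, high-fat diet that causes fatty and fibrotic liver), that were given CDDO-Me by mouth at 10 mg/kg for 8 weeks. NASH vehicle livers came from mice on the same disease diet that were given vehicle, and control livers came from mice without NASH that were given vehicle. CDDO-Me is bardoxolone methyl, a synthetic triterpenoid known as an activator of the antioxidant transcription factor NRF2. The labels used here do not state the sex or age of the mice, the length of the diet or the diet of the controls.

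Chaperones of the Hsp70 class bind unfolded stretches of protein and release them with each cycle of ATP. J-domain proteins (the Dnaj genes) bring clients to Hsp70 and start its ATP hydrolysis, and exchange factors such as Hsph1 and the Bag proteins reset it. Hsp90 completes the folding of kinases and steroid receptors, the Hspd1-Hspe1 chaperonin folds proteins in the mitochondrial matrix, and small heat shock proteins hold unfolded proteins without ATP. Many of these genes are switched on by heat shock factor 1, which binds heat shock elements, arrays of alternating GAA and TTC units, in their promoters.

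RefSeq promoter windows (GRCm38.p6, 250 bases before to 50 bases after each start) were at hand for 53 of the 67 members. A 3-unit heat shock element, GAANNTTCNNGAA or TTCNNGAANNTTC on either strand, stood in the windows of 4 of these 53 members (7.55%), against 179 of 27025 genes with a window (0.662%). The 4 were Hspd1, Hspe1, Hsph1 and Dnajb6, and Hspd1 and Hspe1 share the same element. The 2-unit form, GAANNTTC or TTCNNGAA, which every 3-unit element also holds, stood in 16 of the 53 members (30.2%) against 16.97% of all genes. The antioxidant response element core, TGACNNNGC or GCNNNGTCA, stood in 9 of the 53 (16.98%) against 13.99% of all genes. A match is a run of letters and not a measured binding site.

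The 3-unit elements are shown as 28 bases each, 5′ to 3′ on the gene's own strand, because these 4 members alone held an exact match. The pattern allows no mismatch in its units, so any imperfect element in another member was not counted. Capitals mark the matched bases, units and spacers alike. In Hspe1 and Hspd1 they cover overlapping 3-unit matches. Hspe1 and Hspd1 lie head to head, and the same bases, chr1:55088054-55088081 (plus strand) for Hspe1, serve both windows and overlap an annotated Hspd1 exon. The Dnajb6 stretch is chr5:29735845-29735872 (plus strand), and the Hsph1 stretch, chr5:149636280-149636307 (minus strand), lies just inside the transcript.
Hspe1: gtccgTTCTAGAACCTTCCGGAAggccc
Hspd1: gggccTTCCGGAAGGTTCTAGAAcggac
Dnajb6: gctccgaGAATCTTCCGGAAcgctagac
Hsph1: ctgcagaTTCTGGAAAGTTCtcctcagt

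Hspa1a and Hspa1b, the classical inducible Hsp70 genes, are neighbours on chromosome 17 with almost the same promoter: 247 of the 250 bases before the start (98.8%) are identical. The 120 bases before each start are printed to show how alike the pair is, with the single 2-unit element in capitals. They lie at chr17:34972157-34972276 (minus strand) and chr17:34959239-34959358 (minus strand).
Hspa1a: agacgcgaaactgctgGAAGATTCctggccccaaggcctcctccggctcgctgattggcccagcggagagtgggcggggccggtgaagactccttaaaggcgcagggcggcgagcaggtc
Hspa1b: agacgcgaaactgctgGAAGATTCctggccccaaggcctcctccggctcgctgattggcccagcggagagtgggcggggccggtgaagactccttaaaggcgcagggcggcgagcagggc

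A 2-unit element without the third unit stood in the windows of 6 J-domain genes. The 5 whose RNA is described below are shown at chr4:40722334-40722361 (plus strand), chr9:54699459-54699486 (plus strand), chr3:152193842-152193869 (minus strand), chr2:80315274-80315301 (plus strand) and chr12:4082351-4082378 (plus strand). In NASH vehicle against control livers the first 3 fell and Dnajc10 and Dnajc27 rose on the main scale used below, while on TPM none of the first 3 passed and both others were higher. The remaining gene, Dnajc5g, had 0 reads.
Dnaja1: aaagcctctaGAAAATTCtacgaggctc
Dnaja4: gaacctccgcGAACGTTCtgggcctatg
Dnajb4: tcgttcgctgTTCTAGAAagtacagaga
Dnajc10: acaattttatTTCTAGAAaactttaatt
Dnajc27: acccatcggtGAAGATTCcaggaaaaaa

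Depth was similar in all libraries, between 28161057 and 33852338 gene reads, and the members took 0.655% to 0.707% of the reads in CDDO-Me livers, 0.645% to 0.780% in NASH vehicle livers and 0.628% to 0.783% in control livers. CPM (a gene's reads relative to the library's size) were scaled with the trimmed mean of M values (TMM), which sets the typical gene equal across libraries. The TMM factors were 1.08 ± 0.11 in CDDO-Me, 1.20 ± 0.08 in NASH vehicle and 0.78 ± 0.04 in control libraries (SD, n = 4 each). A gene that keeps its share of all reads therefore has a lower TMM-scaled CPM in NASH vehicle than in control livers. In this text "rose" and "fell" refer to TMM-scaled CPM, that is, to change relative to the typical gene, with edgeR's quasi-likelihood test and a Benjamini-Hochberg adjusted p under 0.05 over all 16456 genes tested. TPM values, which are shares of all RNA, are the second scale, tested with limma on log2(TPM + 1), because the sign often differs. Each fall of a named member in NASH vehicle against control livers has its TPM difference or its mean TPM beside it. Liver identity was clear: the 10 hepatocyte markers summed to 40513 to 59725 CPM in CDDO-Me, 37032 to 60037 CPM in NASH vehicle and 90436 to 109773 CPM in control livers.

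By level, the set was dominated by a few genes. Summed over the 67 members, TPM were 4713 ± 193 in CDDO-Me livers, 5089 ± 539 in NASH vehicle livers and 4473 ± 498 in control livers (SD, n = 4 each), and the ranges of the 3 groups overlapped. Hsp90ab1, the constitutive cytosolic Hsp90, was the most abundant at 1056 ± 54.5 TPM in CDDO-Me, 1202 ± 151 TPM in NASH vehicle and 936 ± 127 TPM in control livers. Hspa8, the constitutive cytosolic Hsp70, followed at 895 ± 92.7, 1117 ± 153 and 1009.8 ± 142 TPM in the same groups, and its spread overlapped that of Hsp90ab1. Next came the mitochondrial set: Hspd1 (Hsp60) at 484 ± 23.4, 396 ± 31.7 and 411 ± 57.6 TPM, Hspa9 (mortalin, the mitochondrial Hsp70) at 377 ± 20.6, 349.6 ± 28.9 and 332 ± 43.5 TPM, and Hspe1 (Hsp10) at 276 ± 37.6, 266 ± 11.4 and 295 ± 38.01 TPM. In all, 9 members averaged at least 100 TPM over the 12 libraries, 46 averaged 1 to 100 TPM and 12 averaged under 1 TPM.

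**Figure D1:**
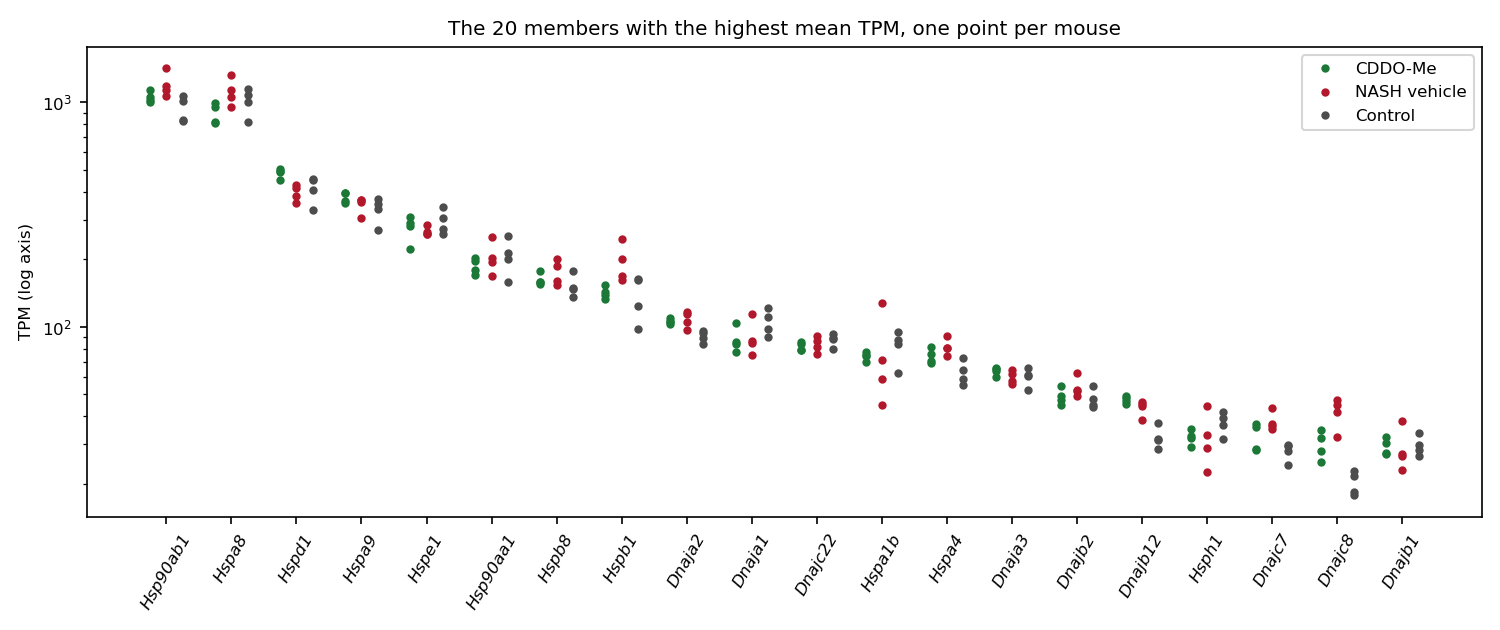
TPM (log axis) of the 20 members with the highest mean over 12 libraries, 1 point per mouse, with CDDO-Me, NASH vehicle and control side by side. Hsp90ab1 and Hspa8, with means of 1065 and 1007 TPM over the 12 libraries, lead the set.

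Of the 67 members, 60 passed the filter on low counts and were tested. The 7 others were Dnajb7, Dnajb8, Dnajc5b, Dnajc6, Hspb3 and Hspb9, which had few reads, and Dnajc5g, which had 0 reads in all 12 libraries, a count that allows up to 3 reads in each. Dnajc6 (auxilin, a clathrin-uncoating factor of neurons) was between 0 and 0.592 CPM in every library. Among the tested members, 12 had under 70% of their reads assigned uniquely, so their values can include reads of near-identical copies or overlapping genes: Dnaja1, Dnaja4, Dnajb3, Dnajc25, Dnajc28, Dnajc30, Hsp90aa1, Hspa1a, Hspa1b, Hspa1l, Hspa8 and Hspb1.

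The first comparison, of NASH vehicle with control livers, concerns the disease diet. Relative to the typical gene, chaperone RNA was broadly lower: 35 members fell, 6 rose and 19 did not pass. Over all tested genes 30.0% fell and 29.6% rose (59.7% in either direction), so the members' share of falls (58.3%) was above the background and their share of rises (10%) below it. The 4 NASH vehicle and 4 control values did not overlap for 35 members (58.3%), against 54.4% of all tested genes. The median log2 fold change was -0.39 over the members and -0.01 over all tested genes. As shares of all reads the direction turned: with library totals in place of TMM, 22 members were higher and 6 lower, and in limma on log2(TPM + 1) 34 were higher and 1 lower, while all genes counted 9908 higher and 1326 lower, and 10905 higher and 873 lower. The members' median stayed under that of all genes in each case, by 0.38 with TMM, 0.38 with library totals and 0.12 with log2(TPM + 1). The 4 members with a 3-unit heat shock element all fell in NASH vehicle livers against control livers (median log2 fold change -0.94), and of the 43 tested members with a window and no such element 21 fell and 5 rose (median -0.32). On log2(TPM + 1) 0 of the 4 were lower and 1, Dnajb6, was higher (median -0.09), while of the 43 others 1 was lower and 27 were higher (median 0.41).

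In the same livers the 10 hepatocyte markers all fell (median log2 fold change -1.33) and 9 of 10 macrophage markers rose (median 3.43), with macrophage sums of 2108 to 3529 CPM in NASH vehicle and 165 to 257 CPM in control livers. In bulk tissue, fewer cells of a type and less RNA per cell cannot be told apart. The part of these cell type shifts in the chaperone values was not tested.

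**Figure D2:**
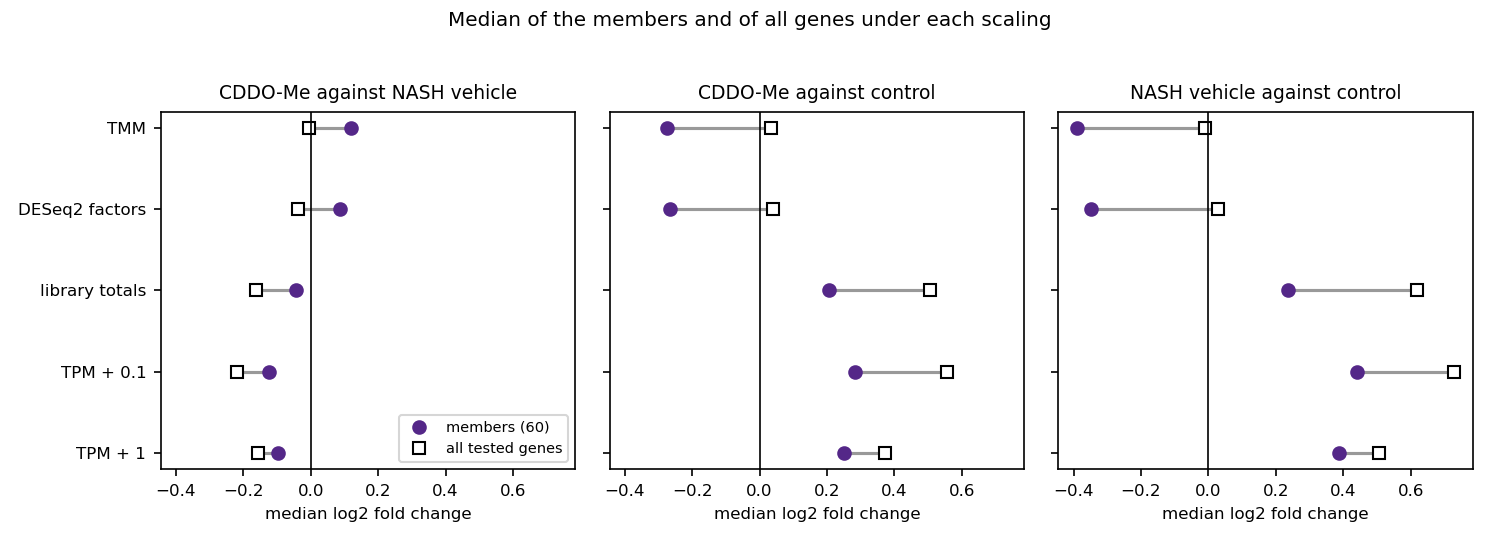
Median log2 fold change of the 60 tested members (filled) and of all tested genes (open) under 5 scalings, for each comparison. In NASH vehicle against control the members' median is -0.39 with TMM and 0.39 with log2(TPM + 1), and it lies below the median of all genes under all 5 scalings.

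Within the Hsp70 class, 8 of 13 members fell in NASH vehicle against control livers and 0 rose, whereas with log2(TPM + 1) 6 were higher and 0 lower. On that scale 66.3% of all tested genes were higher and 5.31% lower, the background for the class counts on TPM in this comparison. Hsph1 (Hsp110, a heat-inducible exchange factor) had 89.6, 88.1, 106 and 79.97 CPM in CDDO-Me livers, 58.6, 71.8, 93.5 and 77.7 CPM in NASH vehicle livers and 176, 189, 139 and 132 CPM in control livers. The NASH vehicle range lay wholly below the control range (log2 fold change -1.08 ± 0.15 (SE), adjusted p = 4.57e-05). On log2(TPM + 1) it did not pass (-0.24, adjusted p = 0.196). Hspa8 had 1467, 1416, 1523 and 1309 CPM in CDDO-Me livers, 1433, 1532, 1581 and 1559 CPM in NASH vehicle livers and 2601, 2961, 2394 and 1983 CPM in control livers. Its NASH vehicle range was also below control (-0.70 ± 0.14, adjusted p = 0.000601), while on TPM the sign turned and it did not pass (0.15, adjusted p = 0.308), and only 29.7% of its reads were unique.

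Hspa1b had 71.2, 79.7, 91.1 and 69.8 CPM in CDDO-Me livers, 44.01, 55.6, 100.5 and 63.8 CPM in NASH vehicle livers and 147, 141, 138 and 99.2 CPM in control livers. It fell (-0.99 ± 0.22, adjusted p = 0.00163), but NASH vehicle 3 overlapped the lowest control, and on TPM it did not pass (-0.20, adjusted p = 0.471). Hspa1a had 10.7, 16.1, 13.3 and 16.8 CPM in CDDO-Me livers, 8.62, 19.3, 25.9 and 17.5 CPM in NASH vehicle livers and 5.92, 9.32, 26.9 and 11.8 CPM in control livers, with control 3 the highest of all 12 and the other controls within or below the range of the NASH vehicle livers, and it did not pass (0.40, adjusted p = 0.449), although on TPM it was higher (1.22, adjusted p = 0.0228). Only 17.5% of Hspa1a and 55.98% of Hspa1b reads were unique, so the split between the pair is uncertain. Summed over both, they came to 82.0, 95.8, 104 and 86.6 CPM in CDDO-Me, 52.6, 74.9, 126 and 81.2 CPM in NASH vehicle, and 153, 150.4, 165 and 111 CPM in control livers. The sum was below every control in 3 of 4 NASH vehicle livers.

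Hspa4, a cytosolic relative of Hsph1, had 158, 163, 169 and 138 CPM in CDDO-Me livers, 157, 141, 144 and 144 CPM in NASH vehicle livers and 186, 216, 209 and 187 CPM in control livers and fell with no overlap (-0.44 ± 0.09, adjusted p = 0.00107), while on TPM it was higher (0.38, adjusted p = 0.00374). Hspa13, an Hsp70 relative of the microsomal compartment, had 39.3, 40.7, 44.9 and 34.6 CPM in CDDO-Me livers, 28.2, 34.6, 36.7 and 37.7 CPM in NASH vehicle livers and 78.6, 64.4, 38.9 and 39.2 CPM in control livers. It fell (-0.69 ± 0.20, adjusted p = 0.0112), on TPM the sign turned without passing (0.19, adjusted p = 0.352), and controls 1 and 2 stood well above controls 3 and 4. The 14 endoplasmic reticulum chaperones kept for comparison showed the same split of the controls, with sums of 10475, 8426, 5599 and 5863 CPM. Hspa2, a testis-enriched Hsp70, had 2.61, 2.53, 2.04 and 3.15 CPM in CDDO-Me livers, 3.58, 3.57, 4.0 and 4.06 CPM in NASH vehicle livers and 3.84, 4.01, 7.81 and 3.13 CPM in control livers and did not pass (-0.31, adjusted p = 0.324); without control 3, its highest library, the sign turned (0.05, adjusted p = 0.836).

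**Figure D3:**
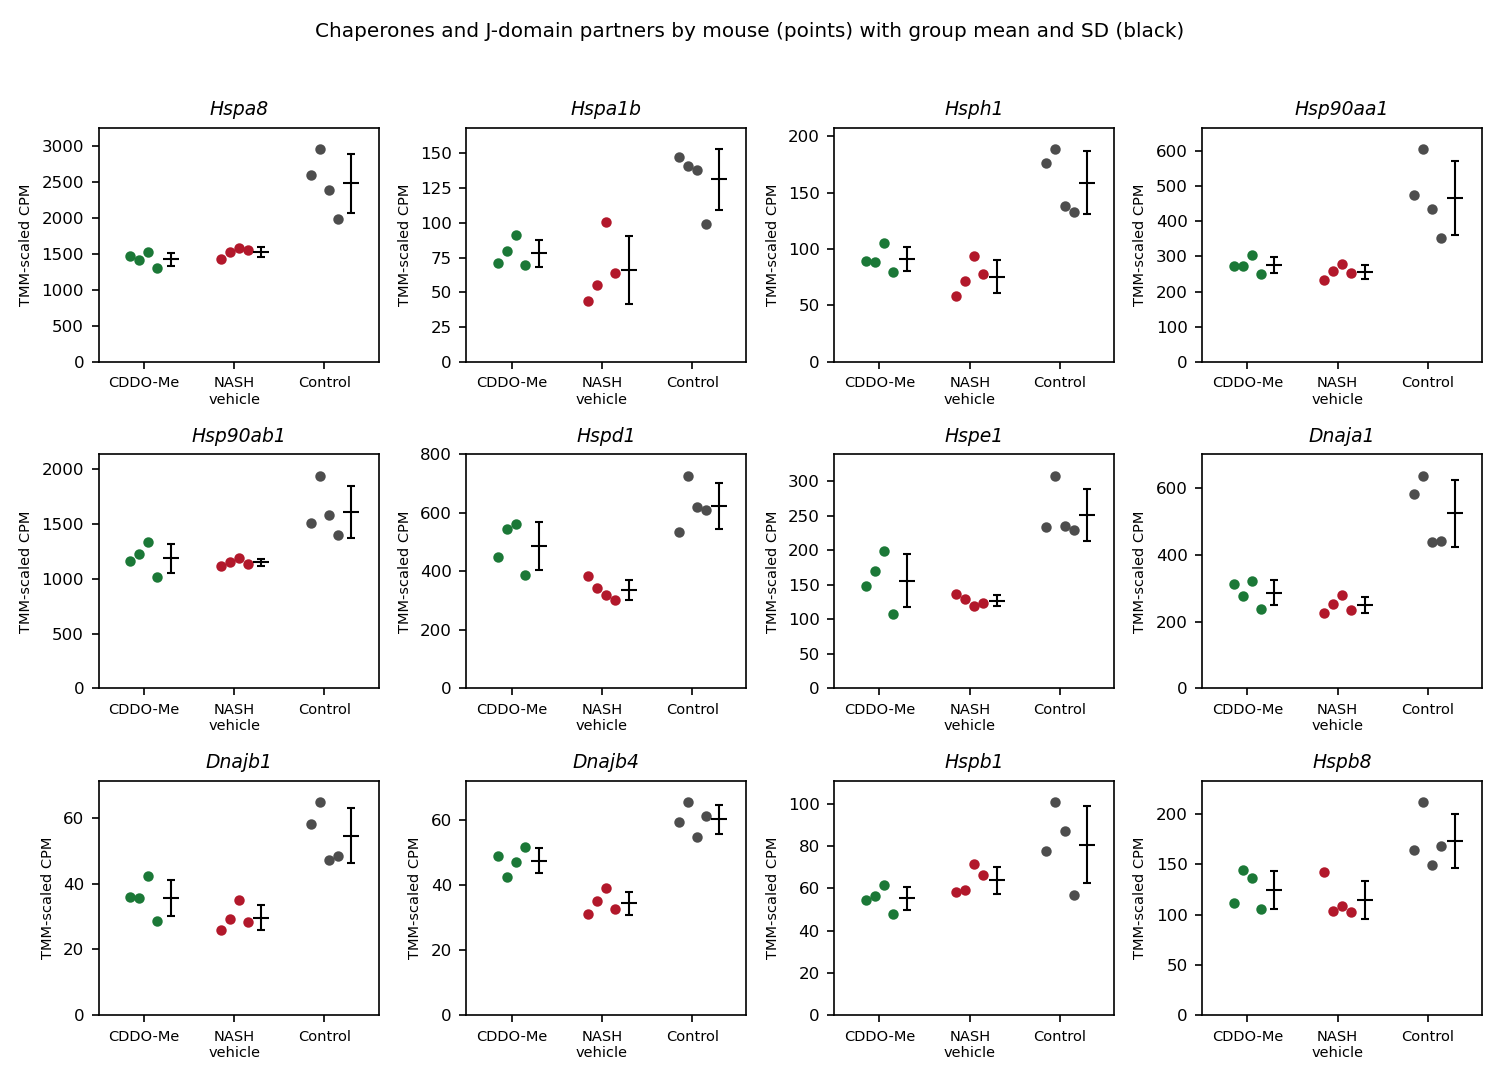
TMM-scaled CPM of 12 chaperones and J-domain proteins, 1 point per mouse, with group means and SD in black. Hsph1, Hsp90aa1, Hspd1, Hspe1, Dnaja1, Dnajb1 and Dnajb4 have every NASH vehicle point below every control point on this scale, which sets the typical gene equal, and CDDO-Me points of Hspd1 and Dnajb4 lie above the NASH vehicle points.

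Both Hsp90 genes fell in NASH vehicle against control livers. Hsp90aa1, the heat-inducible form, had 274, 274, 305 and 249 CPM in CDDO-Me livers, 232, 258, 278 and 254 CPM in NASH vehicle livers and 476, 605, 434 and 352 CPM in control livers. The groups did not overlap (-0.87 ± 0.15, adjusted p = 0.000181), on TPM the difference was close to 0 (-0.01, adjusted p = 0.974), and 50.2% of its reads were unique. Hsp90ab1 had 1164, 1228, 1333 and 1018 CPM in CDDO-Me livers, 1118, 1153, 1190.0 and 1134 CPM in NASH vehicle livers and 1510.0, 1941, 1579 and 1403 CPM in control livers, again with no overlap (-0.48 ± 0.13, adjusted p = 0.00629), but as TPM it was higher (0.36, adjusted p = 0.00995).

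The mitochondrial chaperonin pair fell together. Hspd1 had 449.7, 544, 561 and 387 CPM in CDDO-Me livers, 383, 344, 319.6 and 302 CPM in NASH vehicle livers and 534, 728, 620.3 and 610.1 CPM in control livers. Hspe1, its lid, had 148, 170.1, 198 and 107 CPM in CDDO-Me livers, 136, 129, 119 and 123 CPM in NASH vehicle livers and 233, 308, 235 and 229 CPM in control livers. For both genes all 4 NASH vehicle livers were below all 4 controls (-0.89 ± 0.14, adjusted p = 0.000136 for Hspd1; -0.99 ± 0.16, adjusted p = 0.000163 for Hspe1), and with library totals the 2 changes kept their sign (-0.26 and -0.35, adjusted p = 0.0276 and 0.0134). Neither passed on log2(TPM + 1) (-0.04, adjusted p = 0.724 for Hspd1; -0.14, adjusted p = 0.292 for Hspe1). Hspa9, the Hsp70 that pulls proteins into the matrix, had 494, 633, 672 and 451 CPM in CDDO-Me livers, 506, 477, 404 and 385 CPM in NASH vehicle livers and 645, 838, 756 and 749 CPM in control livers. It fell with no overlap (-0.75 ± 0.15, adjusted p = 0.000755), and on TPM it was 0.08, adjusted p = 0.513.

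The small heat shock proteins were mixed in NASH vehicle against control livers, with 2 of 6 tested lower and 1 higher (33.3% and 16.7%). The shares of all tested genes were 30.0% and 29.6%. On log2(TPM + 1) 1 was lower and 3 were higher, against 5.31% and 66.3% of all tested genes. Hspb6 (Hsp20, a muscle-enriched member) had 6.57, 8.14, 7.7 and 6.48 CPM in CDDO-Me livers, 5.9, 4.09, 5.42 and 4.06 CPM in NASH vehicle livers and 16.8, 14.9, 20.3 and 17.4 CPM in control livers. This was the largest fall among the members (-1.83 ± 0.16, adjusted p = 6.37e-07), and the sole one to hold on TPM (-0.91, adjusted p = 0.000174). Hspb8, which works with Bag3 in autophagy of damaged proteins, had 112, 145, 136 and 105 CPM in CDDO-Me livers, 143, 104, 109 and 103 CPM in NASH vehicle livers and 164, 212, 149.6 and 168 CPM in control livers and fell (-0.60 ± 0.14, adjusted p = 0.00287), while on TPM the sign turned without passing (0.20, adjusted p = 0.108). Hspb1 (Hsp27) had 54.6, 56.5, 61.7 and 47.9991 CPM in CDDO-Me livers and 58.02, 59.02, 71.6 and 66.4 CPM in NASH vehicle livers. Its control values were 77.7, 101, 87.2 and 57.01 CPM. The ranges of NASH vehicle and control overlapped and it did not pass (-0.34, adjusted p = 0.0586). As TPM the direction turned, with 194 ± 38.7 in NASH vehicle and 137 ± 31.7 in control livers (mean ± SD).

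Hspb2, a muscle-enriched member at low level, had 0.904, 0.737, 0.73 and 1.35 CPM in CDDO-Me livers, 0.537, 1.57, 1.52 and 1.43 CPM in NASH vehicle livers and 0.115, 0.369, 0.185 and 0.179 CPM in control livers. It rose (2.58 ± 0.46, adjusted p = 0.000325), and its gene overlaps Cryab, which lies on the opposite strand and rose as well (1.62 ± 0.26, adjusted p = 0.000146). Whether the kit kept strand is not stated, so reads of the pair cannot be told apart. Hspb7 was at 0.266, 0.316, 0.073 and 2.64 CPM in CDDO-Me, 0.179, 0.769, 0.614 and 0.742 CPM in NASH vehicle and 0, 0, 1.85 and 0.0447 CPM in control livers, with control 3 and CDDO-Me 4 far above the rest. Those libraries also had the highest smooth muscle marker sums of their groups, 612 CPM in control 3 and 329 CPM in CDDO-Me 4, against 108 to 218 CPM elsewhere. With all libraries Hspb7 did not pass in NASH vehicle against control (adjusted p = 0.885). A fit without both libraries cannot test this gene. Control 3 was singled out for its high Hspb7 value, and the other controls had at most 0.0447 CPM.

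All 4 Dnaja genes fell in NASH vehicle against control livers, and none passed as lower on TPM. Dnaja1, the heat-inducible cytosolic partner of Hsp70, had 312, 276, 321 and 238 CPM in CDDO-Me livers, 227, 254, 279.8 and 235 CPM in NASH vehicle livers and 581, 637, 438 and 442 CPM in control livers (-1.07 ± 0.15, adjusted p = 3.34e-05; on TPM -0.23, adjusted p = 0.152). Its 2 highest controls were 1 and 2, and the 2 groups were far apart. Dnaja2, its constitutive relative, had 112, 127, 138 and 109 CPM in CDDO-Me livers, 103, 117, 100.1 and 101 CPM in NASH vehicle livers and 153, 170.4, 148 and 152 CPM in control livers (-0.57 ± 0.10, adjusted p = 0.000204), and on TPM it was higher (0.25, adjusted p = 0.0119). Dnaja4 was low but clearly ordered, with 3.83, 2.67, 2.74 and 2.58 CPM in CDDO-Me livers, 4.62, 5.58, 5.08 and 3.95 CPM in NASH vehicle livers and 12.6, 8.86, 9.14 and 9.93 CPM in control livers. No NASH vehicle value reached a control value (-1.07 ± 0.18, adjusted p = 0.000175), but on TPM it did not pass (-0.24, adjusted p = 0.163). Dnaja3 (Tid1, in mitochondria) fell by a similar size to Hspa9 (-0.76 ± 0.11, adjusted p = 4.34e-05) and was level on TPM (0.00, adjusted p = 0.981).

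Among the 9 tested Dnajb genes, 6 fell and 1 rose in NASH vehicle against control livers, while on TPM 4 were higher and 0 lower. Of all tested genes 66.3% were higher on TPM. Dnajb1 (Hsp40, the classical heat-induced J-protein) had 35.9, 35.7, 42.4 and 28.7 CPM in CDDO-Me livers, 25.9, 29.1, 34.96 and 28.3 CPM in NASH vehicle livers and 58.1, 64.8, 47.1 and 48.4 CPM in control livers. All 4 NASH vehicle livers were below the controls (-0.88 ± 0.14, adjusted p = 8.58e-05). Dnajb4, a cytosolic relative, had 48.8, 42.5, 46.9 and 51.6 CPM in CDDO-Me livers, 30.9, 34.95, 39.1 and 32.5 CPM in NASH vehicle livers and 59.3, 65.4, 54.7 and 61.2 CPM in control livers and fell by nearly the same amount (-0.81 ± 0.09, adjusted p = 7.4e-06). Both were near 0 on TPM (-0.05 and 0.00). Dnajb6 and Dnajb14 fell too (-0.50 and -0.31, adjusted p = 5.69e-05 and 0.0178). Their mean TPM were 28.1 and 5.57 in NASH vehicle and 23.8 and 3.9 in control livers. The Dnajb14 call was lost without control 4 or NASH vehicle 1. Dnajb2, which passes ubiquitinated clients to the proteasome, had 82.2, 79.98, 92.6 and 66.9 CPM in CDDO-Me livers, 79.7, 71.6, 77.03 and 72.1 CPM in NASH vehicle livers and 116, 142, 106 and 110.3 CPM in control livers (-0.66 ± 0.11, adjusted p = 0.000211), and on TPM the sign turned without passing (0.17, adjusted p = 0.143). Dnajb12, a J-protein of the endoplasmic reticulum membrane, had 58.5, 67.7, 69.5 and 50.8 CPM in CDDO-Me livers, 54.02, 44.6, 45.1 and 48.6 CPM in NASH vehicle livers and 59.9961, 64.8, 66.1 and 60.9 CPM in control livers and fell slightly (-0.39 ± 0.10, adjusted p = 0.00485), but on TPM it was higher (0.43, adjusted p = 0.00102).

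The sole Dnajb gene that rose was Dnajb13, which encodes an axonemal protein of sperm. It had 2.39, 1.58, 1.09 and 3.76 CPM in CDDO-Me livers, 2.27, 2.5, 3.39 and 3.87 CPM in NASH vehicle livers and 0.384, 0.461, 0.296 and 0.537 CPM in control livers (2.84 ± 0.40, adjusted p = 4.04e-05). However, 68.9% of its reads were intronic and its gene overlaps Ucp2 on the opposite strand, which rose to a similar degree (3.05, adjusted p = 0.000131); without strand the reads cannot be told apart.

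The 27 Dnajc genes were mixed, with 11 of 24 tested falling and 4 rising in NASH vehicle against control livers (19 higher and 0 lower on TPM). Of all tested genes 66.3% were higher on TPM. Dnajc10 (ERdj5, a disulfide reductase of the endoplasmic reticulum) had 59.05, 58.1, 58.7 and 58.9 CPM in CDDO-Me livers, 50.5, 59.9, 47.4 and 55.8 CPM in NASH vehicle livers and 32.1, 29.7, 28.4 and 22.1 CPM in control livers. Every NASH liver of either treatment exceeded every control, and the rise (0.93 ± 0.11, adjusted p = 8.3e-06) also stood on TPM (1.66, adjusted p = 2.26e-07). Dnajc27, which joins a small GTPase to a J-domain, had 1.84, 1.37, 1.24 and 2.18 CPM in CDDO-Me livers, 1.97, 1.73, 2.14 and 1.59 CPM in NASH vehicle livers and 0.807, 0.83, 0.555 and 0.984 CPM in control livers and rose (1.23 ± 0.28, adjusted p = 0.00184). The other rises were small: 0.25 for the splicing factor Dnajc8 and 0.24 for Dnajc1 (ERdj1). All 4 were also higher on TPM and with library totals. The ranges of Dnajc8 and Dnajc1 overlapped between the groups, and their calls were lost when any of 4 and any of 5 single livers was left out (adjusted p up to 0.0616 and 0.103).

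Falls in the class included factors of mitochondria, the ribosome and vesicles. Dnajc22 had 71.9, 80.97, 78.6 and 64.4 CPM in CDDO-Me livers, 81.2, 64.1, 61.6 and 57.5 CPM in NASH vehicle livers and 109.7, 121, 101 and 118 CPM in control livers and did not overlap (-0.77 ± 0.11, adjusted p = 6.74e-05), but it did not pass on TPM (-0.06, adjusted p = 0.518). Dnajc28 had 8.19, 9.93, 9.89 and 6.94 CPM in CDDO-Me livers, 9.84, 6.29, 6.68 and 5.33 CPM in NASH vehicle livers and 12.02, 12.7, 18.1 and 13.6 CPM in control livers and fell (-1.01 ± 0.20, adjusted p = 0.000632), but it did not pass on TPM (-0.16, adjusted p = 0.414) and only 6.54% of its reads were unique. Dnajc7, which links Hsp70 and Hsp90, had 67.8, 62.1, 65.3 and 66.2 CPM in CDDO-Me livers, 66.99, 66.1, 67.3 and 63.5 CPM in NASH vehicle livers and 77.3, 85.1, 78.2 and 87.9 CPM in control livers (-0.32 ± 0.07, adjusted p = 0.0015). Dnajc5 (cysteine string protein) had 72.03, 69.5, 71.7 and 68.01 CPM in CDDO-Me livers, 61.1, 65.7, 65.3 and 66.5 CPM in NASH vehicle livers and 82.2, 76.4, 70.97 and 79.1 CPM in control livers (-0.26 ± 0.07, adjusted p = 0.00616). These last changes were small, and on TPM both genes were higher (0.43 and 0.55). The mitochondrial members Dnajc11, Dnajc15, Dnajc19 and Dnajc30 fell by log2 fold changes of -0.58, -0.39, -0.62 and -0.53. On TPM all 4 turned sign (0.22, 0.39, 0.21 and 0.29), and all but Dnajc11 were higher with an adjusted p under 0.05.

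The comparison of CDDO-Me with NASH vehicle livers concerns the drug in diseased liver. Few chaperone RNAs differed: 8 members rose, 2 fell and 50 did not pass. Over all tested genes 9.39% rose and 7.24% fell (16.6% in either direction), so the members' 13.3% and 3.33% were near the background. The groups did not overlap for 13 members (21.7%), against 21.6% of all tested genes. The median log2 fold change was 0.12 over the members and -0.01 over all tested genes. On log2(TPM + 1) 2 members were higher and 4 lower (3.33% and 6.67%), against 4.73% and 15.84% of all tested genes. With library totals 4 were higher and 2 lower (6.67% and 3.33%), against 5.63% and 9.66%. The count of rises was also sensitive to single livers: it was 4 without NASH vehicle 2, NASH vehicle 4 or CDDO-Me 3, 5 without CDDO-Me 2, and 12 without CDDO-Me 4. The count over all genes moved the same way, with 1545 rises in all 12 libraries, 1102, 930 and 947 without NASH vehicle 2, NASH vehicle 4 and CDDO-Me 3, 937 without CDDO-Me 2, and 1972 without CDDO-Me 4. CDDO-Me 4 was the library in which 34 of 60 members had their lowest CDDO-Me value (56.7%, against 31% of all tested genes).

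Cell type markers also differed between CDDO-Me and NASH vehicle livers. Of 10 macrophage markers 7 fell and 0 rose (median log2 fold change -1.16), with sums of 1178 to 1943 CPM in CDDO-Me and 2108 to 3529 CPM in NASH vehicle livers. Of 9 stellate cell and fibroblast markers 6 fell and 1 rose (median -0.61), with sums of 881 to 1505 CPM in CDDO-Me and 1705 to 2509 CPM in NASH vehicle livers. Of 7 sinusoidal endothelial markers 5 rose and 0 fell (median 0.91), with sums of 177 to 262 CPM in CDDO-Me and 95.3 to 161 CPM in NASH vehicle livers. Of the 10 hepatocyte markers 2 rose and 0 fell (median 0.17), and their sums overlapped. The first 3 lists kept their direction on log2(TPM + 1), with 7 macrophage and 6 stellate cell markers lower and 5 endothelial markers higher. The part of these differences in the chaperone values was not tested.

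**Figure D4:**
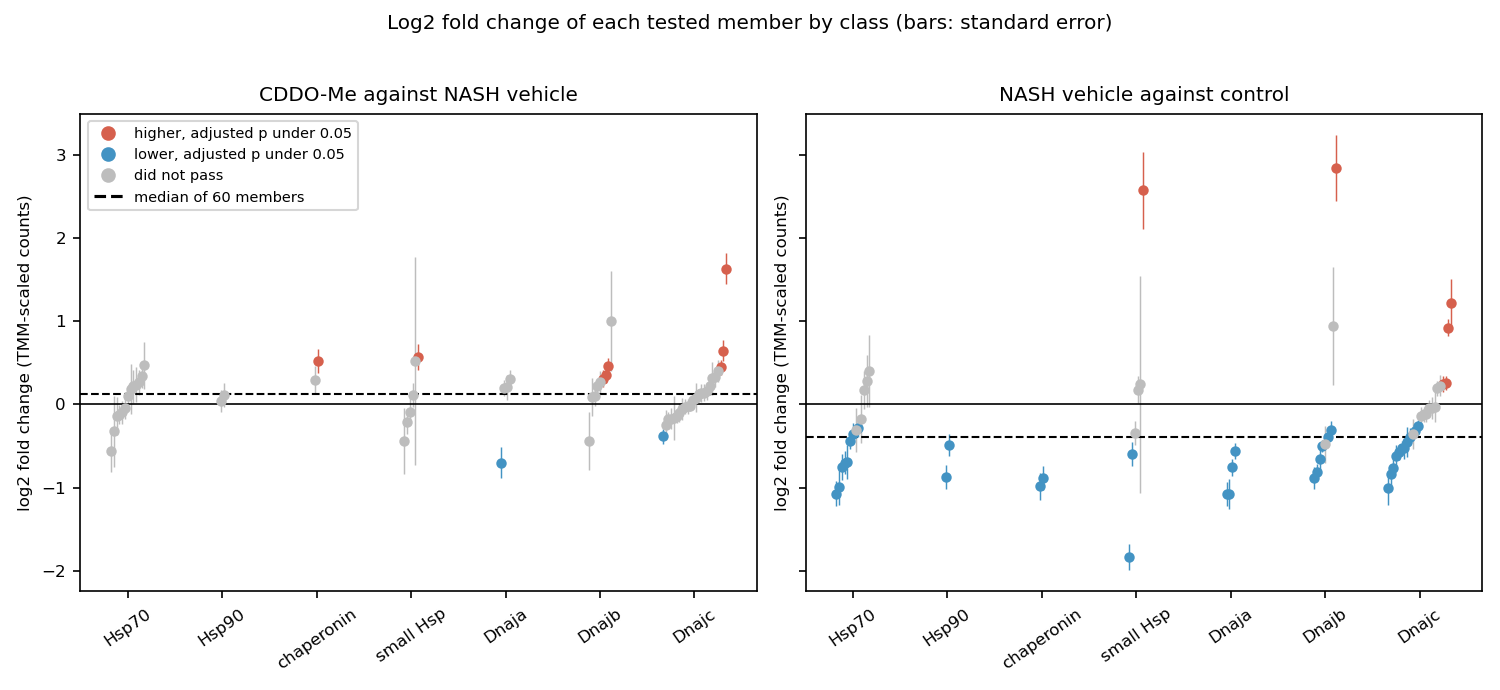
Log2 fold change (TMM-scaled counts) of each tested member by class, with standard errors, for CDDO-Me against NASH vehicle (left) and NASH vehicle against control (right). On the right 35 members are lower and 6 higher on this scale, against 1 lower and 34 higher on log2(TPM + 1); the left panel has 2 lower and 8 higher, where Dnajc12 stands highest at 1.64.

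Dnajc12, a J-protein that binds the aromatic amino acid hydroxylases, had the largest log2 fold change of the 60 tested members between CDDO-Me and NASH vehicle livers. It had 27.3, 31.4, 37.2 and 22.3 CPM in CDDO-Me livers, 13.4, 8.08, 8.32 and 8.25 CPM in NASH vehicle livers and 13.98, 12.2, 12.5 and 13.4 CPM in control livers. Every CDDO-Me liver was above every liver of the other groups. The rise over NASH vehicle (1.64 ± 0.18, adjusted p = 6.44e-05) amounted to 3.11-fold, and Dnajc12 also rose over control (1.18 ± 0.18, adjusted p = 0.00012). It held on TPM in both (1.36 and 1.57). In NASH vehicle against control it fell narrowly (-0.45 ± 0.18, adjusted p = 0.0437), the sign turned on TPM without passing (0.21, adjusted p = 0.134), with NASH vehicle 1 inside the control range, and that call was lost when any of 7 livers was left out.

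The chaperonin Hspd1 rose in CDDO-Me against NASH vehicle livers with no overlap between groups (0.53 ± 0.14, adjusted p = 0.0232), using the values given above. Hspe1 did not pass (0.30, adjusted p = 0.239, 95% interval -0.05 to 0.64), and CDDO-Me 4 lay below all NASH vehicle livers. Without control 3 and CDDO-Me 4 Hspe1 rose (adjusted p = 0.0271), but that fit drops its lowest CDDO-Me value. Hspa9 did not pass either (0.34, adjusted p = 0.139, unadjusted 95% interval 0.02 to 0.67). The Hspd1 call was lost without any of NASH vehicle 2, 3 and 4 and CDDO-Me 2 and 3 (adjusted p up to 0.0826).

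Of the J-domain genes, Dnajb4 rose with no overlap between groups (0.47 ± 0.09, adjusted p = 0.00415). The related membrane proteins Dnajb12 (0.36 ± 0.10, adjusted p = 0.0291) and Dnajb14 (0.31 ± 0.10, adjusted p = 0.0495) rose by smaller amounts, with overlap, and their calls were each lost when any of several single livers was left out. Dnajc25 had 28.4, 38.3, 39.4 and 26.2 CPM in CDDO-Me livers, 22.7, 22.8, 19.1 and 19.8 CPM in NASH vehicle livers and 39.7, 36.6, 36.7 and 38.1 CPM in control livers and rose (0.65 ± 0.12, adjusted p = 0.00359), back into the range of the controls in CDDO-Me 2 and 3. Its gene overlaps another, Gm20503, and 33.99% of its reads were unique. Dnajc21, a ribosome assembly factor, had 33.97, 34.8, 36.99 and 29.4 CPM in CDDO-Me livers. It had 25.97, 25.6, 23.6 and 23.9 CPM in NASH vehicle livers and 39.8, 37.6, 33.6 and 31.97 CPM in control livers. In NASH vehicle against control livers it fell (-0.53, adjusted p = 0.000239), while its mean TPM were 15.4 and 12.6. It rose with CDDO-Me (0.45 ± 0.09, adjusted p = 0.0052). Hspb6 rose as well (0.57 ± 0.15, adjusted p = 0.0232), with every CDDO-Me liver above the NASH vehicle livers and below the controls. The Hspb6 call was lost without any of NASH vehicle 2 and 4 and CDDO-Me 2 and 3 (adjusted p up to 0.0797). Of the 7 other rises, that of Dnajc25 alone also passed on TPM (0.38). Dnajb14, Dnajc21, Dnajc25 and Dnajc1 fell outside the rule for naming members and are named because they passed in this comparison.

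**Figure D5:**
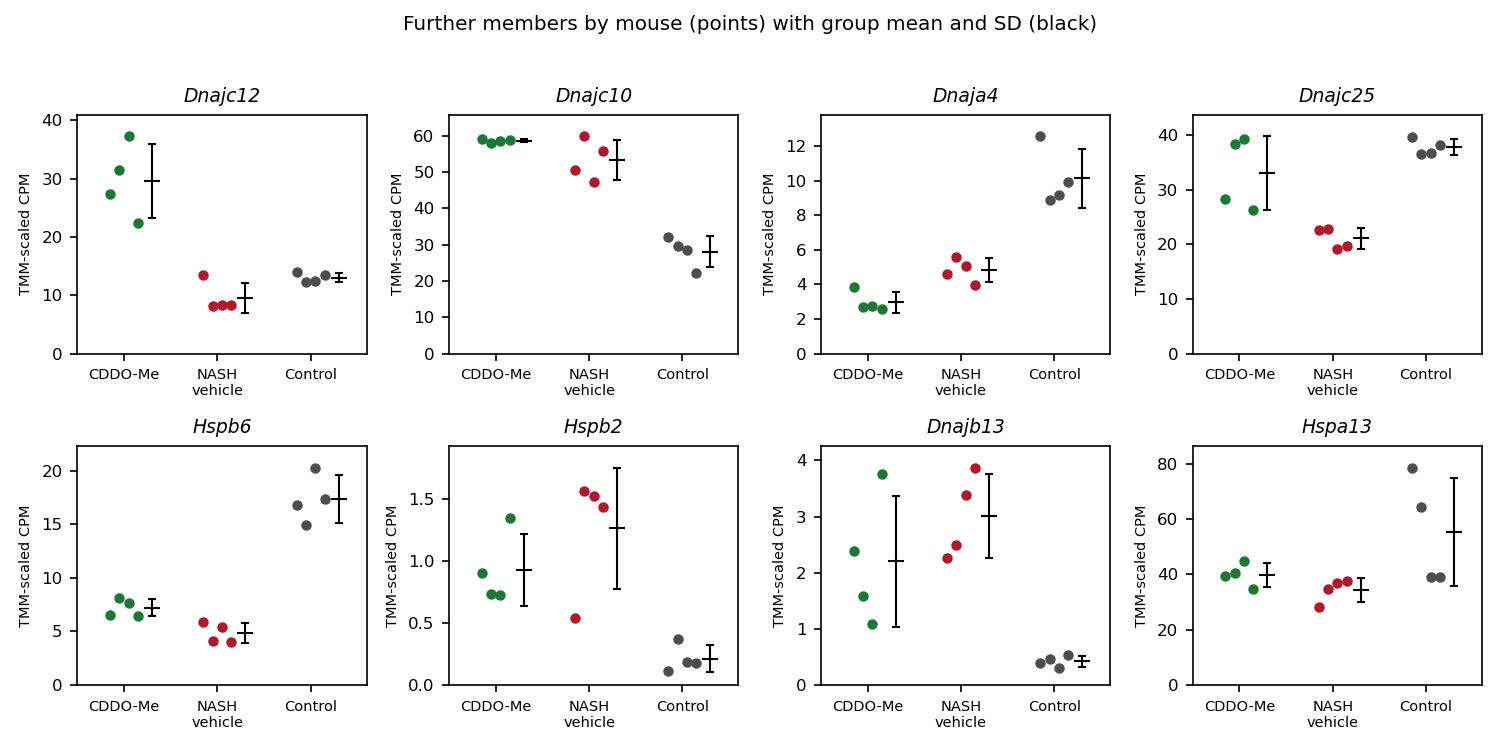
TMM-scaled CPM of 8 further members, 1 point per mouse, with group means and SD in black. Dnajc12 is highest in CDDO-Me livers, Dnajc10, Hspb2 and Dnajb13 are higher in both NASH groups than in controls, and Dnaja4 is lowest in CDDO-Me livers.

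The 2 members that fell with CDDO-Me were Dnaja4 and Dnajc1. For Dnaja4 the 4 CDDO-Me values lay below the 4 NASH vehicle values, which lay below the controls (-0.70 ± 0.18, adjusted p = 0.0189). Against control livers it fell to 0.293-fold in CDDO-Me livers (-1.77 ± 0.18, adjusted p = 5.2e-06), and both falls held on TPM (-0.72 and -0.96). The call against NASH vehicle was lost without any of NASH vehicle 2 and 3 and CDDO-Me 2 and 3 (adjusted p up to 0.0608), and that against control held without any 1 liver. Its reads were 65.8% unique. Dnajc1 had 43.1, 38.2, 35.9 and 43.4 CPM in CDDO-Me livers, 50.2, 56.96, 48.6 and 53.7 CPM in NASH vehicle livers and 42.8, 49.3, 39.2 and 45.6 CPM in control livers, with CDDO-Me below NASH vehicle and near control (-0.38 ± 0.09, adjusted p = 0.0128).

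The classical heat-inducible members did not pass between CDDO-Me and NASH vehicle livers. The 95% interval of the log2 fold change was -0.06 to 0.59 for Hsph1, -0.23 to 0.71 for Hspa1b, -0.20 to 0.42 for Hsp90aa1, -0.11 to 0.52 for Dnaja1 and -0.02 to 0.56 for Dnajb1. For Hspa8 and Hsp90ab1 it was -0.39 to 0.20 and -0.24 to 0.33. Each of these 7 intervals included 0 and allowed less than a 2-fold change in either direction. For Hspa1a the interval was wider, -1.27 to 0.62, and allowed a fall of more than 2-fold. NASH vehicle 3 was the highest NASH vehicle liver for all of Hsph1, Hspa1a, Hspa1b, Hsp90aa1, Dnaja1 and Dnajb1.

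Against control livers, CDDO-Me livers had 27 members lower, 6 higher and 27 that did not pass, where 23.6% of all tested genes fell and 26.2% rose (49.8% in either direction). The values of the 2 groups did not overlap for 27 members (45%), against 43.7% of all tested genes. The members' median log2 fold change was -0.27, against 0.03 over all genes. As with NASH vehicle, the split turned on log2(TPM + 1), to 29 higher and 2 lower (Hspb6 and Dnaja4). Of all tested genes 53.75% were higher and 4.93% lower on that scale. This comparison shares the control livers with that of NASH vehicle and is not independent of it. Hsph1 (-0.81 ± 0.15, adjusted p = 0.000648), Hspa8 (-0.80 ± 0.14, adjusted p = 0.000326), Hsp90aa1 (-0.76 ± 0.15, adjusted p = 0.000728) and Dnaja1 (-0.87 ± 0.15, adjusted p = 0.000272) were below control with no overlap, and none of these 4 passed on TPM (-0.20, -0.17, -0.12 and -0.26). Dnajb12, Dnajb14, Dnajc21 and Dnajc25 did not pass (-0.03, 0.00, -0.08 and -0.19). The 6 higher members were Dnajc10 (1.06 ± 0.11, adjusted p = 4.22e-06), Dnajc12, Dnajc27, Dnajb13, Hspb2 and Dnajb3, and Dnajb3, which lies within the Ugt1a genes, had 0% unique reads and at most 0.584 CPM.

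Partner genes outside the set were mostly lower in NASH vehicle against control livers too on the TMM scale, and these lists also turned on log2(TPM + 1). There 66.3% of all tested genes were higher and 5.31% lower, against 29.6% and 30.0% on the TMM scale. In CDDO-Me against NASH vehicle livers these shares were 9.39% and 7.24% on the TMM scale. On TPM they were 4.73% and 15.84% in that comparison. Of 19 Hsp90 co-chaperones, 13 fell and 0 rose (1 lower and 10 higher on TPM), among them Stip1 (Hop, the bridge from Hsp70 to Hsp90; -1.04 ± 0.11, adjusted p = 5.27e-06) and Fkbp4 (FKBP52, of steroid receptor complexes; -1.25 ± 0.14, adjusted p = 6.09e-06). In CDDO-Me against NASH vehicle livers 1 of the 19 rose, the glucocorticoid-responsive Fkbp5 (0.99 ± 0.22, adjusted p = 0.00891), and 1 fell, Unc45a (-0.51). Of 12 Hsp70 exchange factors and other chaperone partners, 9 fell and 1 rose in NASH vehicle against control livers. On TPM 0 were lower and 8 higher. In CDDO-Me against NASH vehicle livers 5 of the 12 rose and 0 fell (2 higher, Bag4 and Sgtb, and 1 lower on TPM). The exchange factor Bag3 fell in NASH vehicle (-0.82 ± 0.11, adjusted p = 2.04e-05) and rose with CDDO-Me (0.43 ± 0.11, adjusted p = 0.015), and Bag1, Bag2, Bag4 and Sgtb rose with CDDO-Me as well (0.51, 0.70, 0.69 and 0.94).

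Of the 14 subunits of the cytosolic chaperonin TRiC and its partner prefoldin, 10 fell and 1 rose in NASH vehicle against control livers, including all 8 TRiC subunits (log2 fold changes of -0.81 for Cct6a to -0.28 for Cct4); on TPM 9 of the 14 were higher and 0 lower. Of 12 other mitochondrial chaperones and proteases 10 fell and 0 rose (0 lower and 7 higher on TPM), among them Trap1, the mitochondrial Hsp90 (-0.91 ± 0.13, adjusted p = 3.99e-05), and 3 rose with CDDO-Me: Clpb, Clpp and Afg3l2 (0.61, 0.40 and 0.53), of which Clpb and Afg3l2 also passed on TPM. The 14 endoplasmic reticulum chaperones counted 11 lower and 0 higher in NASH vehicle against control livers (0 lower and 3 higher on TPM), and 0 of 14 passed between CDDO-Me and NASH vehicle livers (2 lower on TPM).

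Hsf1, which encodes heat shock factor 1, did not pass in any comparison on the TMM scale: the log2 fold change was -0.05 in NASH vehicle against control, -0.06 in CDDO-Me against NASH vehicle and -0.11 in CDDO-Me against control. On log2(TPM + 1) Hsf1 was higher in NASH vehicle than in control livers (0.64, limma adjusted p = 0.00281). Its relatives Hsf2 and Hsf4 fell in NASH vehicle livers (-0.66 and -0.92) and rose with CDDO-Me (0.40 and 0.63), but on TPM neither passed in NASH vehicle against control livers (0.12 for Hsf2 and -0.18 for Hsf4), and Hsf4 alone passed with CDDO-Me (0.31). Of 11 other genes known to respond to heat shock, 7 fell and 3 rose in NASH vehicle against control livers (1 lower and 4 higher on TPM). The 3 were Serpinh1 (Hsp47, the collagen chaperone; 2.36 ± 0.20, adjusted p = 9.51e-07), Cryab and Zfand2a (0.87 ± 0.11, adjusted p = 1.8e-05), and Serpinh1 and Zfand2a fell with CDDO-Me (-0.86 and -0.43). Stellate cell and fibroblast markers, in cells that make collagen, counted 8 of 9 higher in NASH vehicle and 6 of 9 lower with CDDO-Me, and their part in the Serpinh1 values was not tested.

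Chaperone RNA in liver varies with body temperature and time of day, so genes that report on these were read in the same libraries. The cold-inducible RNA-binding proteins Cirbp and Rbm3 did not pass in any comparison on the TMM scale, while on TPM both were higher in NASH vehicle and in CDDO-Me than in control livers. Of 15 clock genes, 6 rose and 6 fell in NASH vehicle against control livers (9 higher and 2 lower on TPM, 8 and 2 with library totals), with Dbp at 2.11, Per1 at 1.65 and Cry1 at -1.95, and 3 rose and 1 fell in CDDO-Me against NASH vehicle livers (2 higher and 1 lower on TPM). The labels do not state the hour at which livers were taken, and the part of these clock gene differences in the chaperone values was not tested.

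Within groups, the median coefficient of variation over the tested members was 12.6% in CDDO-Me, 9.91% in NASH vehicle and 13.3% in control livers. CDDO-Me 3 held the highest CDDO-Me value for 31 of 60 members (51.7%, against 23.7% of all tested genes), and CDDO-Me 4 the lowest for 34. Control 2 held the highest control value for 23 members (38.3%, against 26.4%). NASH vehicle 1 held the lowest NASH vehicle value for 25 members (41.7%, against 33.2%).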

How the data were processed

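Liver poly(A) RNA was sequenced as paired-end reads, per the labels' protocols, in 12 libraries, 4 per group. The authors deposited 1 table per library with raw counts per gene (total, unique, exon and intron reads) and TPM computed by the authors, per the file headers. The genome build was GRCm38, per the submitters' processing notes; no source used here names the aligner, the counter or their use of strand. Total gene reads were tested with edgeR 4.0.16 in R 4.3.3 (filterByExpr with a minimum count of 10, TMM factors, robust quasi-likelihood fit over all 12 libraries, 1 mean per group), two-sided, with Benjamini-Hochberg adjustment over all 16456 genes kept. The standard error of a log2 fold change was taken as its size divided by the square root of F, and 95% intervals were built on it without adjustment for multiple tests. Fold changes used edgeR's prior count of 0.125. Deposited TPM were tested with limma 3.58.1 on log2(TPM + 1) for the same genes, and DESeq2 1.42.0 was an alternative.

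The members and the gene lists were chosen with earlier results of these data known. Members given with every sample's value were 20 genes listed by role, those with adjusted p under 0.05, an absolute log2 fold change of at least 1 and a mean of at least 1 CPM, and the 2 of each class with the highest TPM; others are named because of their values, among them Dnaja3, Dnajb6, Dnajb14, Dnajc1, Dnajc8, Dnajc21, Dnajc25, Hspb7 and Dnajb3. The alternatives were other scalings, filters, read classes, tests and left-out libraries. The labels do not say whether a replicate number joins animals across groups. The edgeR p-values rest on a spread between livers within groups that is estimated over all 12 libraries. With only the 8 libraries of CDDO-Me and NASH vehicle, 6 members were higher and 2 lower, against 1481 and 1588 of all genes. The code was tested on simulated data. Promoter sequences are RefSeq's, and overlapping exons were read from GENCODE vM21.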

Additional observations from a re-analysis of the deposited data

Results flagged for a closer look

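Of 96 groups of 4 livers (32 named members in 3 groups each), 5 held a liver whose gap to the nearest other exceeded Dixon's 95% critical value, a test that chance alone passes in about 1 group in 20. CDDO-Me 1 had 3.83 CPM of Dnaja4, against 2.58 to 2.74 CPM in the other CDDO-Me livers, and was still below all NASH vehicle livers. NASH vehicle 1 stood apart for 3 genes: it had 13.4 CPM of Dnajc12 against 8.08 to 8.32 CPM in the other NASH vehicle livers, 143 CPM of Hspb8 against 103 to 109 CPM, and 0.537 CPM of Hspb2 against 1.43 to 1.57 CPM. Control 2 had 308 CPM of Hspe1, against 229 to 235 CPM in the other controls.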

How the results depend on the processing

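The scaling moved the counts most. In NASH vehicle against control, members counted 22 higher and 6 lower with library totals, 34 and 1 with log2(TPM + 1), and 35 and 1 with log2(TPM + 0.1), while all genes counted 9908 and 1326, 10905 and 873, and 11069 and 872. In CDDO-Me against NASH vehicle, members counted 4 higher with library totals and 2 higher and 4 lower with either TPM setting, while all genes counted 926 higher with library totals, 779 higher and 2607 lower with log2(TPM + 1), and 719 and 1968 with log2(TPM + 0.1). In CDDO-Me against control, members counted 23 higher and 4 lower with library totals and 29 and 2 with either TPM setting, while all genes counted 8678 and 1125, 8845 and 812 (log2(TPM + 1)), and 9243 and 817 (log2(TPM + 0.1)). These scalings moved the median of all genes by 0.63, 0.52 and 0.74 in NASH vehicle against control. The single-gene values below have the shift of their own comparison taken out, apart from small shifts. In CDDO-Me against NASH vehicle, DESeq2 called 7 members higher and 2 lower, and 1631 and 1823 of all genes. Without control 3 and CDDO-Me 4, 13 members were higher and 3 lower (21.7% and 5%). All genes then counted 2211 higher and 2004 lower (13.3% and 12.1%).

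Leaving out 1 liver gave 4 to 7 members higher and 32 to 35 lower in NASH vehicle against control (all genes 4489 to 5241 and 4491 to 5017), 4 to 12 and 1 to 3 in CDDO-Me against NASH vehicle (930 to 1972 and 617 to 1453), and 5 to 6 and 23 to 27 in CDDO-Me against control (3764 to 4710 and 3358 to 3875). With the replicate block there were 6 members higher and 2 lower in CDDO-Me against NASH vehicle, and 1250 and 927 of all genes. Same-numbered livers did not deviate together, so the numbers were not used as pairs. Their r ran from -0.22 to 0.19 and was over 0.1 in 2 of 12 pairs. Of 12 libraries, 0 correlated best with their own number.

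Before any shift was taken out, the sign of a member often differed between TMM and library totals or either TPM setting. Over 38 members this held in 51 of 114 fits in NASH vehicle against control. It held in 29 of 114 in CDDO-Me against NASH vehicle and 51 of 114 in CDDO-Me against control. The TPM values below have the shift taken out and so differ from those in the Results. Signs then turned for a few small changes, and the cause was not tested. On log2(TPM + 1) these were Dnajc5 (0.036) and Hspb1 (0.0009) in NASH vehicle against control, Dnajc27 (0.033) and Hsp90ab1 (-0.029) in CDDO-Me against NASH vehicle, and Dnajb12 (0.21, and 0.040 on log2(TPM + 0.1)), Dnajc5 (0.12), Dnajc21 (0.12), Dnajc25 (0.018) and Dnajc1 (0.033) in CDDO-Me against control. Dnajb12 also turned on exon reads (0.0069). Without control 3 and CDDO-Me 4, Hspa2 was 0.054 in NASH vehicle against control, and Dnajb12 was 0.076 and Dnajb14 -0.082 in CDDO-Me against control. Leaving out 1 liver, Hspa2 ran between -0.46 and 0.053 in NASH vehicle against control, Hsp90ab1 between -0.015 and 0.11 and Dnajc7 between -0.031 and 0.012 in CDDO-Me against NASH vehicle, and Dnajb12 between -0.096 and 0.051, Dnajb14 between -0.072 and 0.055 and Hspa1a between -0.18 and 0.66 in CDDO-Me against control.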
